A study of Homo sapiens with 24 samples.

Results

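Five-day induction of DPPA3 in three-dimensional culture was measured on 6 of the series' 24 arrays, chosen by their titles. The cells were SW1222, a long-established line from a human colorectal cancer. Cells carrying doxycycline-inducible DPPA3 (3 arrays, the induced line) and their control line (3 arrays) were grown as megacolonies embedded in Matrigel, a basement membrane gel, at 21% oxygen, and both lines received 5 µg/ml doxycycline for the last 5 days. All 17448 genes with a probe set of their own were compared. The same 2 lines in flat culture (2D), with 5 µg/ml doxycycline for 4 hours, gave 3 arrays each and are used for comparison. The 5 arrays of the shRNA control line and the scrambled-guide control line in 3D, whose labels name no doxycycline, are used for reference levels. The labels give neither the promoter of the transgene, nor the vector of the control line, nor whether a line is 1 clone. No array of the induced line without doxycycline was analysed here, so an effect of DPPA3 and a standing difference between the lines cannot be told apart. Nothing in the labels says that replicate arrays came from separate cultures, and every p-value here therefore reflects the variation from array to array, which may be technical.

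DPPA3, also called Stella, is a small protein of oocytes and early germ cells that protects the early embryo's DNA methylation state and binds UHRF1, the factor that brings the maintenance methyltransferase DNMT1 to replicating DNA. The study's title links it to HIF1A, resistance to chemotherapy and a slow cell cycle. HIF1A is the oxygen-regulated subunit of the transcription factor HIF, which is degraded after prolyl hydroxylation when oxygen is present and switches on glycolytic, angiogenic and collagen-modifying genes when it is not. Dividing cells express their replication genes in S phase under E2F control and their mitotic genes in G2 phase through the MuvB complexes and FOXM1, and most of these genes are silent in cells that have left the cycle.

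The DPPA3 signal was 3.77, 4.54 and 4.74 on the log2 scale in the induced arrays and 2.99, 2.59 and 2.97 in the control arrays. The groups did not overlap, induced array 1 was the lowest of its group, and the control values lay among the dim genes, since the median over all genes was 4.09. DPPA3 thus rose by 1.50 log2 (SE 0.31, adjusted p = 0.00251, limma with Benjamini-Hochberg adjustment over all genes, as for every adjusted p here). All 12 listed markers of colorectal epithelium were above the array median of 4.08, from CDX1 at 6.24 to LGALS4 at 11.13. Of 19 fibroblast and mesenchymal markers, only COL1A1 was above it (4.12), and of 14 leukocyte and endothelial markers only CD68 and CLDN5 were. In these 3 marker lists no gene passed in either direction.

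In 3D, 995 genes passed at an adjusted p under 0.05, 5.70% of those tested, with 511 higher (2.93%) and 484 lower (2.77%) in the induced line. Most differences were small: the median size among them was 0.54 log2, and 60 genes reached a 2-fold difference, 36 higher and 24 lower. Arrays of the 2 lines did not overlap for 960 of the 995, against 18.3% of all genes. The calls were made from these same arrays, so this separation is no separate support for them. The count of higher genes was 330 without induced array 1, and the count of lower genes was 278 without induced array 3. The first principal component of the 6 arrays (39.7% of the variance) separated the lines. The second (24.9%) set induced array 2 and control array 3 apart from the other 4. Without those 2 arrays 741 genes passed.

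KIT, the receptor for stem cell factor, read 6.43, 6.81 and 6.82 in the induced arrays and 3.31, 3.63 and 3.88 in the control arrays. Every induced array was more than 2 log2 units above every control array. The untreated shRNA and scrambled-guide control lines read 4.26 to 5.54, above every control array and below every induced array. KIT rose by 3.08 log2 (SE 0.18, adjusted p = 1.86e-11). KITLG, its ligand, stayed dim at 2.62 to 2.86 and 2.75 to 2.88 and did not pass (log2 fold change -0.09, adjusted p = 0.745). PDE3A, a phosphodiesterase of cyclic nucleotides, read 6.05, 6.58 and 5.69 against 3.52, 3.50 and 3.19, a rise of 2.71 log2 (SE 0.16). CKB, the brain-type creatine kinase, read 9.16, 8.40 and 8.76 against 6.40, 6.55 and 6.64, a rise of 2.24 log2 (SE 0.16). Neither gene had overlapping groups. For CKB the control line was also below the untreated control lines (7.84 to 8.42). IL37, a cytokine that dampens inflammation, read 6.36 to 6.76 in the induced line, 4.64 to 5.15 in the control line and 6.66 to 6.91 in the untreated lines, so that the control line again stood apart. It rose by 1.67 log2 (SE 0.18), and ANKH, a transporter that exports pyrophosphate and ATP, rose by 1.67 (SE 0.13) in a stretch of chromosome 5 where neighbouring genes were higher too (neighbour median 0.41). FAM13A rose by 1.46 log2 (SE 0.15), and its control arrays (5.58 to 5.75) were below the untreated lines (6.26 to 6.96). SLCO1C1, a thyroid hormone transporter, rose by 1.43 (SE 0.13). The guide RNAs of Cajal bodies SCARNA11 and SCARNA14 rose by 2.03 (SE 0.21) and 1.45 (SE 0.26). STOML3 (1.99), the neural adhesion molecule LSAMP (1.88) and SBSPON (1.82) completed the leading rises outside the lists below.

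PLA2G2A, a secreted phospholipase of the intestinal crypt, had the largest fall. It read 6.70, 7.25 and 6.70 in the induced arrays and 10.18, 10.20 and 10.08 in the control arrays, a log2 fold change of -3.27 (SE 0.12, adjusted p = 5.32e-16). The control arrays were among the values of the untreated control lines (9.69 to 10.22), and the induced arrays were far below. NELL2, a secreted neural glycoprotein, read 3.51, 4.42 and 4.22 against 7.17, 7.20 and 7.01 and fell by 3.08 log2 (SE 0.19). CYP4X1, a cytochrome P450, read 4.63, 4.60 and 4.14 against 6.50, 6.56 and 6.40 and fell by 2.03 (SE 0.13). Both were again set off from their controls by more than the spread of either group. GAL, the neuropeptide galanin, read 6.80, 7.21 and 6.36 against 8.03, 8.15 and 8.24 and fell by 1.35 log2 (SE 0.14). Here the control arrays were above the untreated lines (7.01 to 7.20), which lay within the induced range. The neuromedin receptor NMUR2 fell by 1.25 (SE 0.14), the uroplakin UPK1A by 1.50 (SE 0.11), and HAUS8, a subunit of the augmin complex of the spindle, by 1.23 (SE 0.16) among lowered neighbours (neighbour median -0.47).

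**Figure D1:**
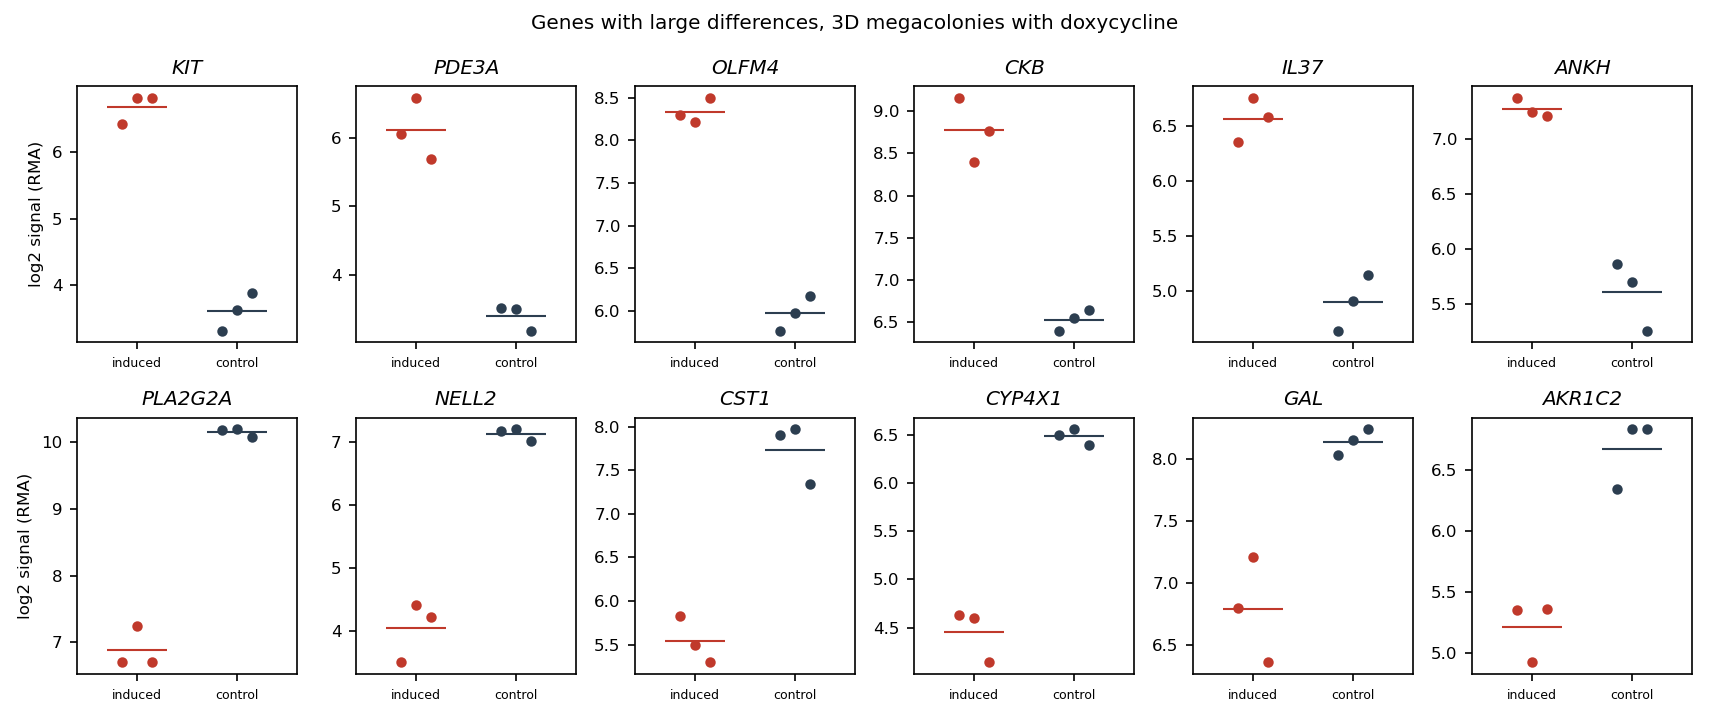
Log2 signal on each array (points) and group mean (lines) for 6 genes with large rises and 6 with large falls, in the induced and the control line in 3D, each panel with its own vertical scale. In all 12 panels the 3 induced arrays are separate from the 3 control arrays, from KIT (3.08 log2 higher) to PLA2G2A (3.27 log2 lower).

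Genes of the division cycle were lower in the induced line. In the G2 and mitosis list 42 of 92 measured genes fell and 0 rose, with a median log2 fold change of -0.37, against 2.77% of all genes lower and a median of -0.01 over all genes. In the S phase and DNA replication list 25 of 64 fell and 0 rose (median -0.38). The count in the mitosis list was 27 without induced array 1, 19 without induced array 3 and 27 without control array 3, and that in the S phase list was 16 without induced array 1 or without control array 2. With the variance estimated from these 6 arrays alone, 11 mitosis genes and 13 S phase genes fell. In 2D, GTSE1, MASTL and NCAPG2 of the mitosis list and MCM10 of the S phase list were lower (1.26% of all genes were). E2F8, NEK2 and TYMS were higher there (1.87% of all genes were), and the list medians were 0.04 and -0.04.

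The promoters of the mitotic genes are shown because many hold the CHR (cell-cycle genes homology region), the short element through which MuvB complexes are known to bind such genes. Sequences came from RefSeq (GRCh38.p14), which gave a promoter for 13864 of the 17448 genes, and the window ran from 250 bases before to 25 bases after the start. The core was searched as TTTGAA or TTCGAA on both strands. It was found in 28 of 35 promoters of the genes that fell (80.0%), in 20 of 44 promoters of mitosis genes that did not pass (45.5%) and in 1734 of all 13864 (12.5%). None of 21 promoters of the S phase genes that fell held it. The CCAAT box, searched as CCAAT on both strands, was in 23 of 35 (65.7%), in 31 of 44 (70.5%) and in 35.7% of all promoters. It was in 16 of those 21 S phase promoters (76.2%). A match is a description of the sequence and not a measured binding site. The promoters of KIF11 (chr10:92592880-92593154, plus strand), KIF4A (chrX:70289854-70290128, plus strand) and SPAG5 (chr17:28599001-28599275, minus strand) are written below from 5′ to 3′ with the core in capitals (TTCAAA is the core read from the other strand). They belong to the genes with the largest falls that held the core and whose chromosomal neighbours were not shifted, picked after their values were seen.
KIF11: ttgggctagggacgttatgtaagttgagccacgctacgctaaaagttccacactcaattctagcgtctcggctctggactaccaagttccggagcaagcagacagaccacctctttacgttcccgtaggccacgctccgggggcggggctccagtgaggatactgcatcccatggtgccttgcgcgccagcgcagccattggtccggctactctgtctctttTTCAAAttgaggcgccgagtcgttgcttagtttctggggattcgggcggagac
KIF4A: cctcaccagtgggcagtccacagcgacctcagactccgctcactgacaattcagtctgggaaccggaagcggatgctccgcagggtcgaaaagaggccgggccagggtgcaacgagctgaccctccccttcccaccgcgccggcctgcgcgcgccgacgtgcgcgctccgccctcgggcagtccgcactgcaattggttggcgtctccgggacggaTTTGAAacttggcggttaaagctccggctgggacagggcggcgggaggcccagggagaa
SPAG5: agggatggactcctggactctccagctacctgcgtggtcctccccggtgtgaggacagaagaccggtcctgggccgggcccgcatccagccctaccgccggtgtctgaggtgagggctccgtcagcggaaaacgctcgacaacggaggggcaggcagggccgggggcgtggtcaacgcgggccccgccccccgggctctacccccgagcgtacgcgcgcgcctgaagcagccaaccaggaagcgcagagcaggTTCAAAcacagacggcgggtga
KIF11, the motor that pushes the spindle poles apart, read 5.57, 6.26 and 5.64 against 6.37, 6.50 and 6.65 and fell by 0.69 log2 (SE 0.15, adjusted p = 0.006). KIF4A, a chromosome-bound motor, read 6.44, 6.35 and 6.34 against 7.05, 7.16 and 6.90 and fell by 0.66 (SE 0.17, adjusted p = 0.0189). SPAG5, the spindle protein astrin, read 5.37, 6.19 and 5.53 against 6.32, 6.23 and 6.54 and fell by 0.66 (SE 0.15, adjusted p = 0.00813). The groups did not overlap for these 3 genes, but each call depended on single arrays. KIF11 lost it without induced array 1 or 3, and SPAG5 without induced array 1 or 3 or control array 3. KIF4A lost it without induced array 2 or 3 or control array 1 or 2.

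**Figure D2:**
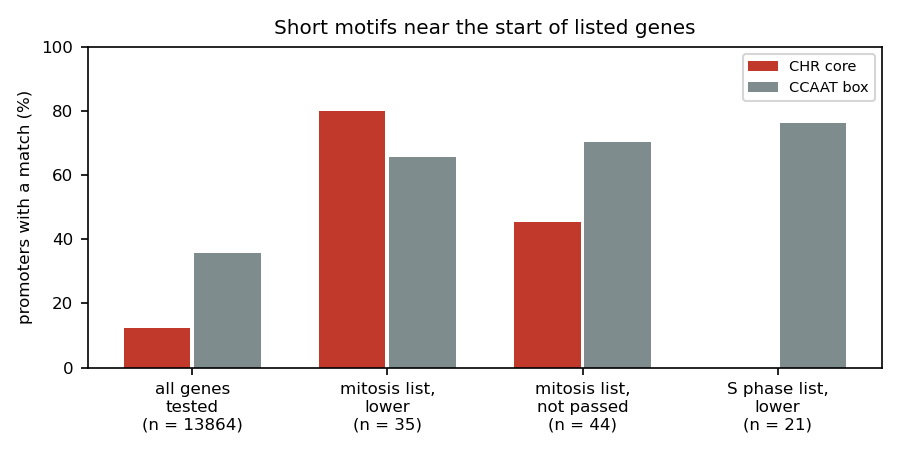
Share of promoters (percent, bars from 0) with at least 1 match to the CHR core or the CCAAT box on either strand, for all genes with a promoter sequence, mitosis genes that fell, mitosis genes that did not pass and S phase genes that fell. The CHR core is in 80.0% of the second group, 45.5% of the third, 12.5% of all genes and none of the 21 S phase promoters.

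Within the mitosis list the falls were spread over most parts of the machinery. Among kinesins and spindle proteins 15 of 22 fell, among mitotic kinases 7 of 12, and among genes of anaphase, condensin and cytokinesis 11 of 18. The kinases that fell were AURKA, which matures the centrosome, the checkpoint kinases BUB1, BUB1B and TTK, and MELK, PBK and MASTL. Of the kinetochore and centromere genes 5 of 21 fell (CENPE, CENPN, NUF2, SPC25 and ZWINT), and of the cyclins, CDK1 and their phosphatases 2 of 11 (CCNB1 and CDK1). The strongest were GTSE1, a microtubule-binding protein of G2 phase (-0.95 log2, SE 0.10, adjusted p = 6.2e-07), and MASTL, the Greatwall kinase that protects mitotic phosphorylation (-0.92, SE 0.19, adjusted p = 0.00318). Both lie where neighbouring genes were lower too, with neighbour medians of -0.30 and -0.50 log2, and the part of this in their falls was not tested. TACC3, a spindle protein that works with the kinase AURKA, fell by 0.76 (SE 0.17, adjusted p = 0.00682), a call lost without induced array 3 or control array 3. MKI67, the proliferation marker that coats mitotic chromosomes, read 7.30, 7.76 and 7.28 against 7.97, 8.0 and 8.06. Its arrays did not overlap and it fell by 0.56 log2 (SE 0.10, adjusted p = 9.95e-04; 0.0585 with the variance of these 6 arrays alone). FOXM1, which activates G2 genes, fell by 0.36 (SE 0.10, adjusted p = 0.0299). Its call was lost without induced array 3, control array 1 or control array 2.

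In the S phase list 10 of 21 genes of origin licensing and the helicase fell, 6 of 9 histone chaperones and chromatin genes, 6 of 21 polymerase, clamp and loader genes and 3 of 6 replication checkpoint genes (CLSPN, TIPIN and CHEK1). The chaperone genes that fell included CHAF1A and CHAF1B of the assembly factor that places histones behind the fork. Of the 7 measured genes of nucleotide supply none passed, and 0 were called higher. TYMS, the target of fluorouracil, was among these, at 7.59, 7.88 and 7.59 against 7.42, 7.28 and 7.48 (log2 fold change 0.29, adjusted p = 0.124). MCM10, an initiation factor, fell by 1.18 log2 (SE 0.14, adjusted p = 5.11e-06) in a lowered neighbourhood (neighbour median -0.45). MCM7, a helicase subunit, read 6.76, 6.76 and 6.57 against 7.54, 7.49 and 7.20 and fell by 0.71 (SE 0.10, adjusted p = 6e-05). NASP, a histone chaperone, fell by 0.69 (SE 0.11) and WDR76 by 0.66 (SE 0.12). The clustered histone genes, whose RNA is made in S phase, were lower in 9 of 47 with 0 higher (median -0.24). Over all genes, 2.77% were lower. H2BC10 read 7.28, 7.07 and 7.19 against 7.77, 8.10 and 8.31, and H3C12 read 7.26, 6.99 and 7.44 against 8.16, 8.22 and 7.75. H2BC10 fell by 0.88 log2 (SE 0.15), H3C12 by 0.82 (SE 0.15) and H2AC14 by 1.36 (SE 0.22). H2BC14 fell by 0.90 (SE 0.23, adjusted p = 0.0146), a call lost without induced array 2 or control array 2. Histone genes are close paralogs, so their probe sets may not separate them fully. Of the 9 genes 4 lie in lowered neighbourhoods, but the neighbours counted can be other histone genes of the same cluster. For H2AC14 and H2BC14 the neighbour medians were -0.24 and -0.22 in 3D and -0.09 and -0.05 in 2D.

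Of 39 measured genes of G1 control, CDK inhibition and quiescence, 0 passed in limma, where 5.70% of all genes did, and the list median was 0.03 log2. CDKN1A, the p21 inhibitor, read 4.86, 4.49 and 4.49 against 4.08, 4.53 and 4.31, and its groups overlapped (log2 fold change 0.30, adjusted p = 0.342). CDKN1B (p27) was at 0.07, CDKN1C (p57) at -0.08, CDKN2A at -0.02 and CDKN2B at 0.01, with overlapping groups in each. CDKN2A and CDKN2B were dim in both lines (2.69 to 2.97 and 2.81 to 3.17), so their values say little. RB1, RBL1 and RBL2, the pocket proteins that restrain E2F, were within 0.06 log2 of their controls in size. CCND1 was at -0.02, CCNE1 at -0.07, CCNE2 at -0.17 and E2F1 at -0.26 (adjusted p = 0.242). MYC read 8.13, 7.86 and 7.77 against 7.83, 8.01 and 7.90 (log2 fold change 0.01). CDKN2C was not analysed here. MDM4 rose by 0.85 (SE 0.13, adjusted p = 1.34e-04) in a raised neighbourhood (0.33). MDM2, a ubiquitin ligase, was at 0.10, and BCL2, an inhibitor of apoptosis, at -0.27 (adjusted p = 0.115), and neither passed. The means of BCL2 (3.62 and 3.89) were below the median level in both lines.

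Genes of homologous recombination and the Fanconi pathway fell in 7 of 33 and rose in 1, against 2.77% and 2.93% of all genes. Those that fell included BRCA1, RAD54L and FANCI. BLM, the Bloom helicase, read 5.70, 5.36 and 5.68 against 6.73, 6.58 and 6.78. All its induced arrays were well below the controls, and it fell by 1.12 log2 (SE 0.11, adjusted p = 1.46e-07). The recombination gene RAD51C fell by 0.60 (SE 0.12, adjusted p = 0.00291), a call lost when induced array 2 and control array 3 were both left out. EME1, a partner of the MUS81 nuclease, fell by 0.59 (SE 0.14, adjusted p = 0.00735), a call lost without control array 2. XRCC2, in a lowered neighbourhood (-0.25), fell by 0.65 (SE 0.18, adjusted p = 0.0303), a call lost without induced array 1 or 2 or control array 2 or 3. FANCF, an adaptor of the Fanconi core complex, rose by 0.71 (SE 0.13, adjusted p = 8.28e-04). Of 37 ribosome biogenesis genes 4 fell (PA2G4, POLR1E, MRTO4 and UTP20, by 0.32 to 0.50 log2) and 0 rose, and the list median was -0.21. The calls were 10.8% of the list, against 5.70% of all genes and 10.1% of genes above the median level. Each of those 4 calls was lost when some single arrays were left out: PA2G4 without induced array 3 or control array 1, MRTO4 and POLR1E without any 1 of the induced arrays or control array 1 or 2, and UTP20 without induced array 1 or 3 or control array 2 or 3.

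**Figure D3:**
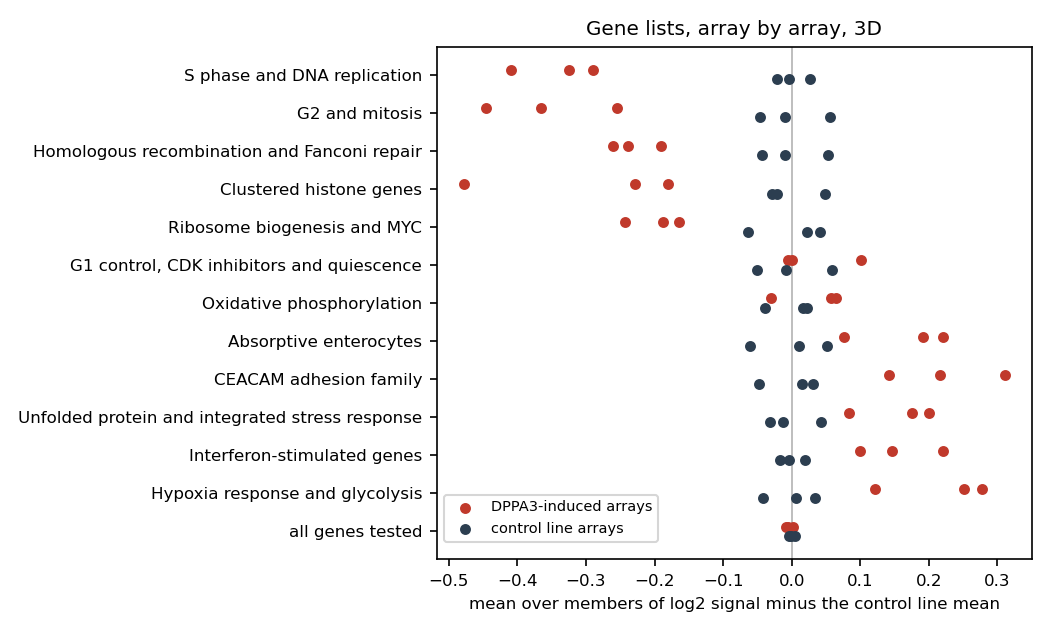
For 12 gene lists and all genes tested, the mean over members of the log2 signal minus the control line's mean, on each of the 3 induced and 3 control arrays in 3D. In the S phase, mitosis, repair, histone and ribosome lists every induced array lies below every control array, while the G1 list and oxidative phosphorylation overlap; the groups were not tested as lists.

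Among 65 measured genes of the hypoxia response and glycolysis 12 rose and 1 fell, with a list median of 0.18 log2 (0.08 in 2D) against 2.93% of all genes higher. P4HA1, a collagen prolyl hydroxylase, read 6.01, 6.05 and 6.27 against 4.90, 5.02 and 4.85. Its groups were far apart, and it rose by 1.19 log2 (SE 0.13, adjusted p = 1.15e-06). TFF3, a trefoil peptide of goblet cells that hypoxia also induces, read 9.18, 8.71 and 8.67 against 7.86, 8.12 and 8.05 and rose by 0.85 (SE 0.14, adjusted p = 2e-04). ALDOC, a glycolytic aldolase, read 7.72, 7.34 and 7.56 against 7.04, 6.96 and 6.23 and rose by 0.80 (SE 0.16, adjusted p = 0.00286; 0.0605 with the variance of these 6 arrays alone). NDRG1, a stress-induced growth regulator, read 8.38, 7.67 and 8.35 against 7.34, 7.51 and 7.20 and rose by 0.79 (SE 0.17, adjusted p = 0.00426). Groups did not overlap in either gene, but induced array 2 of NDRG1 came close to the controls. VEGFA, the angiogenic growth factor, read 7.48, 7.29 and 7.37 against 6.82, 6.97 and 6.70 and rose by 0.56 (SE 0.14, adjusted p = 0.0139), a call lost without induced array 1 or control array 3. ANKRD37, a HIF target, went the other way and fell by 0.60 (SE 0.16, adjusted p = 0.024), a call lost without induced array 1 or 2 or control array 2 or 3. By role, 3 of 20 genes of glucose uptake and glycolysis rose (PFKFB2, ALDOC and LDHA), and 2 of 9 other metabolic genes, CA12, a carbonic anhydrase, and GBE1, the glycogen branching enzyme. The same held for 2 of 8 collagen-modifying enzymes (P4HA1 and PLOD2), 2 of 10 secreted factors (TFF3 and VEGFA) and 3 of 18 genes of mitophagy, stress and feedback (BNIP3L, NDRG1 and INSIG2). PFKFB2, LDHA and P4HA1 lie in raised neighbourhoods (0.45, 0.50 and 0.20), whose part in the result was not tested.

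Of 17 measured HIF subunits and oxygen-sensing genes 1 passed (5.88%, near the 5.70% of all genes). It was CUL2, the scaffold of the VHL ubiquitin ligase, which fell by 0.77 (SE 0.11, adjusted p = 7.14e-05). CUL2 lies in a lowered neighbourhood of chromosome 10 (neighbour median -0.48). HIF1A read 6.27, 6.67 and 6.51 against 6.35, 6.61 and 6.86, with overlapping groups (log2 fold change -0.12, adjusted p = 0.788). EPAS1, which encodes HIF2A, was at 0.14, ARNT, the shared partner, at 0.17, and VHL, which marks HIF for destruction, at 0.15, all with overlapping groups. The hydroxylase genes EGLN1 and EGLN3 were at 0.31 (adjusted p = 0.189) and 0.33 (adjusted p = 0.256) and did not pass. Their arrays did not overlap between the lines, as for 18.3% of all genes, and EGLN1 lies in a raised neighbourhood (0.26). HIF is regulated mainly as a protein, which the arrays did not measure.

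The promoters of 3 hypoxia genes that rose are shown for their HIF cores, since HIF binds a short core motif, searched here as ACGTG or GCGTG on both strands. The motif is common: it was in 7485 of 13864 promoters (54.0%), in 33 of 47 promoters of listed hypoxia genes that did not pass (70.2%) and in 7 of 7 of those that rose and had a sequence. PLOD2 (chr3:146161160-146161434, minus strand), ALDOC (chr17:28576871-28577145, minus strand) and INSIG2 (chr2:118088221-118088495, plus strand) were chosen by the same rule as the mitotic genes, after their values were seen, and capitals mark the core. In ALDOC the cores of both strands overlap in CACGTG.
PLOD2: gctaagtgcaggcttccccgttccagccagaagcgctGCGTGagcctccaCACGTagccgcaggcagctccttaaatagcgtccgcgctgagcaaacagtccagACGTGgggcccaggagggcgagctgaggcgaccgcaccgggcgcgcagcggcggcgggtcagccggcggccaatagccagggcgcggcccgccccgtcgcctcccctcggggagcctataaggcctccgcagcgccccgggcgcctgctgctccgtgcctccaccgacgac
ALDOC: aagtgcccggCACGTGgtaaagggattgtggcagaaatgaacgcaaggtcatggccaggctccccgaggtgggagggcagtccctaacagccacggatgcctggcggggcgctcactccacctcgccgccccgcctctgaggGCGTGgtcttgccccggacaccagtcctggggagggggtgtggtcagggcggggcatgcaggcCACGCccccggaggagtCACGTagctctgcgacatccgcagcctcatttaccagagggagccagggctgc
INSIG2: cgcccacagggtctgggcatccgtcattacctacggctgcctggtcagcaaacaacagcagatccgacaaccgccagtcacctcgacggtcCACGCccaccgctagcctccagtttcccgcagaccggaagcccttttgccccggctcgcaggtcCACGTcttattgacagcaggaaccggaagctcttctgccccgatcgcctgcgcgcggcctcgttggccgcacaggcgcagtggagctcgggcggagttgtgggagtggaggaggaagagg
PLOD2, a lysyl hydroxylase of collagen, read 8.07, 8.23 and 8.31 against 7.47, 7.31 and 7.59 and rose by 0.74 log2 (SE 0.13, adjusted p = 4.4e-04). INSIG2, a brake on cholesterol synthesis, rose by 0.75 (SE 0.19, adjusted p = 0.0141), a call lost without induced array 3 or control array 3. In neither gene did the groups overlap.

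The induced and control lines were then set beside the untreated control lines in 3D, as levels only. For 26 of the 42 mitosis genes that fell, all control arrays lay outside the range of the 5 untreated arrays while the induced arrays did not all do so. For 14 both groups lay outside, and for 1 only the induced arrays did. In 40 of the 42 the control line was above the untreated lines. In the S phase list the control line was above in 24 of 25. Of all 484 genes that fell, the control line was above in 246, and for 187 (38.6%) only the control arrays lay outside. BLM, a gene of the recombination list, also had its control arrays above the untreated lines. It was 5.36 to 5.70 in the induced line, 6.58 to 6.78 in the control line and 5.53 to 5.78 in the untreated lines. MKI67 was 7.27 to 7.72 in the untreated lines, against at least 7.97 in the control line. Averaged over the mitosis list, the level was 5.75 in the induced line, 6.10 in the control line, 5.54 in the shRNA control and 5.49 in the scrambled-guide control. For the S phase list these means were 5.62, 5.96, 5.41 and 5.37. Among other genes that fell, the control line was above the untreated lines in 9 of 9 clustered histone genes. The same held for 4 of 4 ribosome biogenesis genes and 6 of 7 genes of recombination and the Fanconi pathway. Of the 12 hypoxia genes that rose, the control line was below the untreated lines in 10 and the induced line in 6. Of all 511 genes that rose, the control line was below in 135 and the induced line in 19. VEGFA was 7.78 to 8.12 in the untreated lines, above both lines, and the list means were 5.74, 5.52, 5.94 and 5.87 in the same order. Line, experiment and doxycycline differ together here and cannot be told apart. Over all 995 genes, the induced line alone lay outside in 40.3%, the control line alone in 27.2%, both in 18.8% and neither in 13.7%.

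**Figure D4:**
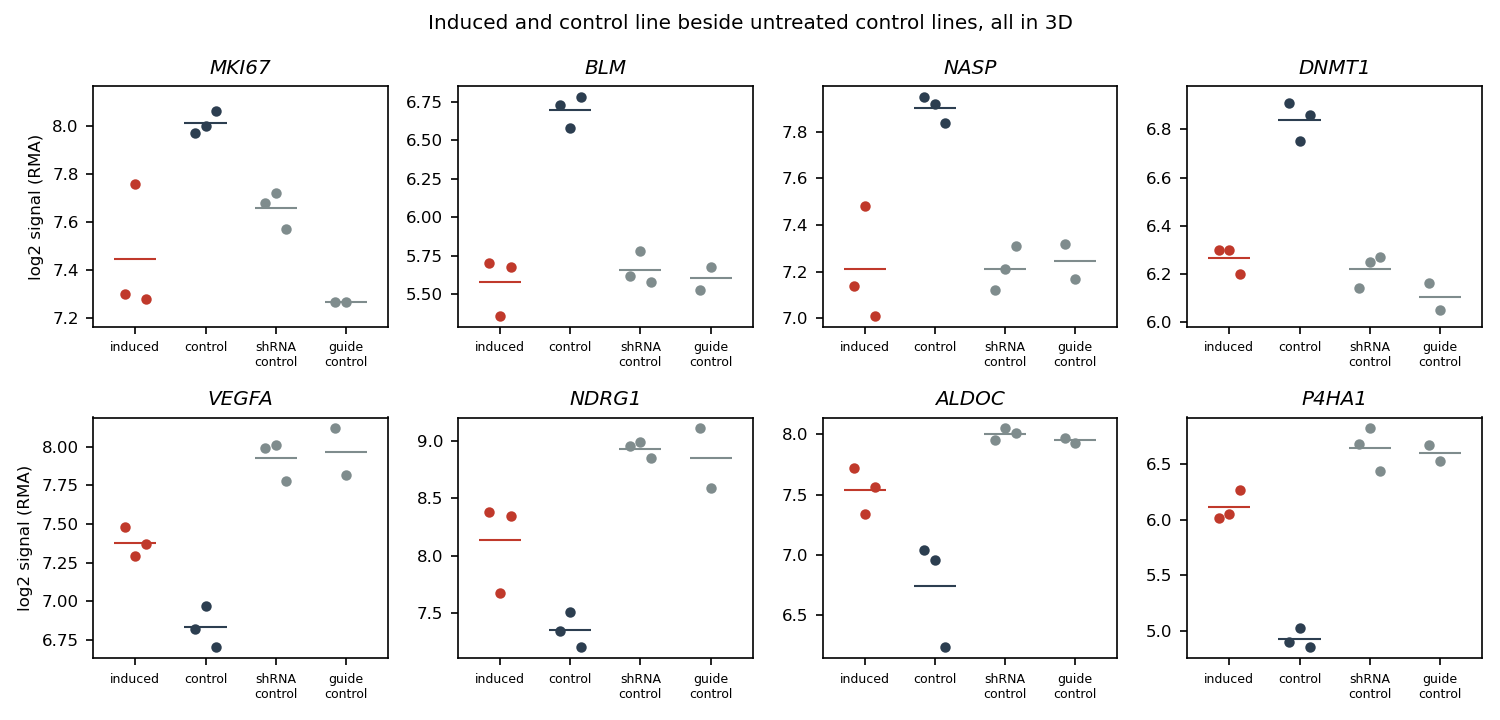
Log2 signal on each 3D array (points) and group mean (lines) in the induced line, the doxycycline-treated control line and the untreated shRNA and scrambled-guide controls. The top row holds 4 genes that fell: MKI67 (mitosis list), BLM (recombination list), NASP (S phase list) and DNMT1 (DNA methylation list). The bottom row holds 4 hypoxia genes that rose. The control line is the highest group for MKI67, BLM, NASP and DNMT1 and the lowest for VEGFA, NDRG1, ALDOC and P4HA1.

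Of 14 stem cell genes 3 rose and 0 fell, where 2.93% of all genes were higher and 2.77% lower. OLFM4, a secreted glycoprotein of crypt stem cells, read 8.30, 8.21 and 8.50 against 5.77, 5.98 and 6.18 and rose by 2.35 log2 (SE 0.14, adjusted p = 2.37e-11). Both lines were above the untreated lines (3.38 to 3.78). LGR5, the R-spondin receptor that marks these cells, read 7.09, 7.11 and 6.99 against 6.33, 6.69 and 6.40 and rose by 0.59 (SE 0.11, adjusted p = 0.00116). RGMB, a BMP co-receptor, rose by 0.78 (SE 0.14). ASCL2, a stem cell transcription factor, was at 0.22 (adjusted p = 0.321) with overlapping groups. Of 14 Wnt feedback and target genes 5 fell, NKD1 among them, and 1 rose (median -0.19). APCDD1, a Wnt inhibitor, read 6.79, 6.53 and 6.48 against 7.61, 7.62 and 7.07 and fell by 0.83 (SE 0.13, adjusted p = 9.73e-05), and LEF1, a nuclear partner of beta-catenin, fell by 0.57 (SE 0.12, adjusted p = 0.00403). AXIN2, the classical feedback target, fell by 0.48 (SE 0.10, adjusted p = 0.00362; 0.0687 with the variance of these 6 arrays alone). The inhibitor DKK1 fell by 0.73 (SE 0.16, adjusted p = 0.00637), a call lost without induced array 3 or control array 3, in a lowered neighbourhood. Its means of 3.25 and 3.98 were below the median level in both lines. LGR4 rose by 0.45 (SE 0.11, adjusted p = 0.0106), a call lost without induced array 2 or control array 2.

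Differentiation markers did not move as a block. Of 32 genes of absorptive enterocytes 6 rose and 1 fell, against 2.93% and 2.77% of all genes, shares that also stand beside the next 2 groups. SLC26A3, the chloride exchanger of the colon surface, read 4.64, 4.32 and 4.97 against 3.68, 3.47 and 3.27 and rose by 1.17 log2 (SE 0.17, adjusted p = 3.81e-05). The sulfate transporter SLC26A2 rose by 0.88 (SE 0.16), the peptidase DPP4 by 0.80 (SE 0.15) and the glucose transporter SLC5A1 by 0.66 (SE 0.13, adjusted p = 0.0018; 0.0523 with the variance of these 6 arrays alone). MYO1A, a brush border myosin, fell by 0.45 (SE 0.12, adjusted p = 0.0286), a call lost without induced array 1 or 3 or control array 1 or 2. Of 23 goblet cell genes 2 rose and 4 fell. TFF1, a trefoil peptide, read 7.46, 7.34 and 7.30 against 5.99, 6.26 and 6.50 and rose by 1.12 (SE 0.12, adjusted p = 1.23e-06). MUC2, the main gel-forming mucin, read 3.67, 3.77 and 3.89 against 4.41, 4.56 and 4.39 and fell by 0.68 (SE 0.09, adjusted p = 1.07e-05). SPINK4 fell by 1.86 (SE 0.19) and REG4 by 0.54 (SE 0.11, dim at 2.32 to 3.20). CLCA1 fell by 0.53 (SE 0.12, adjusted p = 0.00564, dim at 2.32 to 3.15, lost without control array 1). None of 12 enteroendocrine genes passed in limma, where 5.70% of all genes did. In the CEACAM adhesion family 3 of 11 rose. CEACAM7 read 5.14, 5.01 and 5.40 against 4.35, 4.23 and 3.77 and rose by 1.06 (SE 0.19, adjusted p = 5.5e-04), CEACAM6 rose by 0.77 (SE 0.10), and CEACAM1 by 0.38 (SE 0.11, adjusted p = 0.034), a call lost without any 1 of the arrays other than induced array 1. The untreated control lines in 3D read 6.25 to 7.85 for CEACAM7 and 7.63 to 7.82 for CEACAM1, above both the induced and the control line. For CEACAM6 (5.44 to 5.96) the induced arrays were above them. CEACAM genes are near-identical in places, so probe sets may share signal.

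Of 30 secreted protease inhibitors and proteases 7 rose and 4 fell, against 2.93% and 2.77% of all genes. CST1, a salivary cystatin, read 5.83, 5.50 and 5.30 against 7.90, 7.97 and 7.34 and fell by 2.19 log2 (SE 0.22). Its near-identical paralog CST2 fell by 0.82 (SE 0.23, adjusted p = 0.0364), a call lost without any 1 of the arrays other than induced array 3. TIMP1, an inhibitor of matrix metalloproteinases, read 4.34, 4.76 and 4.73 against 6.29, 6.48 and 6.31 and fell by 1.75 (SE 0.17, adjusted p = 1.53e-07). KLK6, a trypsin-like protease, fell by 0.65 (SE 0.16, adjusted p = 0.0109), a call lost without induced array 1 or control array 3. SLPI, an inhibitor of elastase, read 6.82, 6.75 and 6.46 against 5.35, 5.32 and 5.29 and rose by 1.36 (SE 0.17, adjusted p = 7.05e-06). The lysosomal cathepsins CTSB and CTSD rose by 0.82 (SE 0.13) and 0.74 (SE 0.13), CTSB in a raised neighbourhood (0.60). SPINK1, a trypsin inhibitor, rose by 0.73 (SE 0.16, adjusted p = 0.00525), a call lost without control array 1.

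Among 37 receptor tyrosine kinases and ligands KIT and EREG rose and EPHA1 fell (8.11%, against 5.70% of all genes). EREG, a ligand of the EGF receptor, read 6.61, 6.40 and 5.96 against 5.31, 5.45 and 5.33 and rose by 0.96 log2 (SE 0.15, adjusted p = 1.21e-04). EPHA1 fell by 0.43 (SE 0.11, adjusted p = 0.0182), a call lost without induced array 3 or control array 2 or 3. Of 30 genes of drug efflux, drug targets and drug metabolism 2 rose and 1 fell. The 3 calls of 30 compare with 5.70% of all genes and 10.1% of genes above the median level, which 22 of the 30 were. ABCB1, the P-glycoprotein efflux pump, read 8.07, 8.03 and 8.19 against 7.30, 7.22 and 7.06. The groups were well apart, and it rose by 0.91 (SE 0.11, adjusted p = 3.12e-06). ABCG2, another efflux pump, stayed dim, at 2.40 to 2.47 against 2.17 to 2.38, and did not pass (0.16, adjusted p = 0.41). CYP1B1 rose by 0.51 (SE 0.12, adjusted p = 0.00795), a call lost without induced array 2. MGMT, which removes alkyl groups from guanine, fell by 0.49 (SE 0.11, adjusted p = 0.00775), a call lost without induced array 3 or control array 3.

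In the DNA methylation machinery 19 genes were measured, and DPPA3 was the only rise and DNMT1 the only fall. These calls were 10.5% of the list, against 5.70% of all genes and 10.1% of genes above the median level. DNMT1, the maintenance methyltransferase, read 6.30, 6.30 and 6.20 against 6.91, 6.75 and 6.86 and fell by 0.57 log2 (SE 0.09, adjusted p = 1.12e-04). In the untreated lines it was 6.05 to 6.27, below all control arrays. UHRF1 read 4.19, 3.98 and 4.26 against 4.71, 4.23 and 4.05, with overlapping groups (-0.19, adjusted p = 0.704). DNMT3A (-0.03), DNMT3B (-0.12), TET1 (0.14), TET2 (0.19) and TET3 (0.11), the de novo methyltransferases and the demethylating dioxygenases, overlapped as well. DNMT3B and TET1 were below the median level in both lines, so their values say little. Of 32 germline and pluripotency genes, many of which are silenced by methylation, 0 passed in limma, where 5.70% of all genes did. The list median was -0.01. These genes were dim, with 3 of 32 above the median level in the higher line. Dim genes rarely passed: 95 of the 995 genes called were not above that level in either line. The 0 calls therefore say little about these genes.

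Smaller groups are given by their counts, against 2.93% of all genes higher and 2.77% lower. Of 32 interferon-stimulated genes 4 rose and 0 fell (median 0.12). Only 8 of the 32 were above the median level in the higher line, and HERC6 and IFIT2 were below it in both lines. HERC6 rose by 0.62 log2 (SE 0.13, adjusted p = 0.00275), while ISG15 (0.50), ISG20 (0.43) and IFIT2 (0.39) passed with adjusted p between 0.0357 and 0.0443 and each lost its call without induced array 1. ISG15 also lost it without induced array 2 or control array 1 or 2, ISG20 without induced array 3 or control array 1 or 3, and IFIT2 without induced array 3 or any 1 of the control arrays. In the unfolded protein and integrated stress response 5 of 29 rose and 1 fell. TRIB3, a target of the ATF4 pathway, read 5.89, 5.58 and 5.50 against 4.80, 4.97 and 4.81 and rose by 0.80 (SE 0.13, adjusted p = 1.95e-04). The serine synthesis genes PHGDH and SHMT2 rose by 0.56 and 0.53, calls lost without induced array 1 and, for SHMT2, also without induced array 3 or control array 3. XBP1, a stress-response transcription factor, rose by 0.44. EDEM1 rose by 0.51, a call lost without induced array 1 or 3 or control array 2 or 3, and PDIA4 fell by 0.40, a call lost without induced array 2 or control array 1 or 2. LCN2, an iron-binding acute phase protein, rose by 1.03 (SE 0.17) and IL32 by 0.78 (SE 0.17, lost without induced array 1), the 2 rises among 30 NF-kappaB and chemokine genes. LAMB3 and ITGA5, a laminin chain and the fibronectin receptor subunit, rose by 1.0 (SE 0.16, in a raised neighbourhood of 0.38) and 0.97 (SE 0.17), and ITGB1 fell by 0.39 (SE 0.10, adjusted p = 0.0157, in a lowered neighbourhood of -0.54, lost without induced array 1 or control array 3). Of 25 junction genes 3 rose: DSC2 by 0.56 (SE 0.11), CLDN1 by 0.55 (SE 0.11; adjusted p = 0.0631 with the variance of these 6 arrays alone) and CLDN4 by 0.61 (SE 0.17, groups overlapping, lost without induced array 1 or 3 or control array 3). JUN rose by 0.66 (SE 0.13), and HMGCS1 was the only rise among 28 genes of cholesterol and fatty acid synthesis (3.57% of them, near the 2.93% of all genes; 0.83 log2, SE 0.10, in a raised neighbourhood of 0.35). Of 47 oxidative phosphorylation genes SDHA (-0.97, SE 0.13) and ATP5F1C (-0.55, SE 0.12, neighbour median -0.54) fell and 0 rose. Of 20 genes of the BMP pathway ID2 rose by 0.47 (lost without induced array 1) and BMP4 and BAMBI fell by 0.58 and 0.55, BAMBI among neighbours with a median of -0.55. The call of BMP4 was lost without any 1 of the arrays other than induced array 1, and that of BAMBI without induced array 1 or 3 or control array 1 or 3.

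Genes called in 3D were gathered on parts of some chromosomes. Each gene was given the median log2 fold change of its 20 nearest neighbours among brighter genes, and 7.41% of genes had a median of 0.2 or more in size. Those neighbourhoods held 276 of the 995 genes called (27.8%). Of these, 131 were higher genes in raised neighbourhoods, 141 lower genes in lowered neighbourhoods, and 4 went against their neighbours. Chromosome 10 had the highest share of lower genes, 80 of 648 (12.3%), and 219 of its genes lay in lowered neighbourhoods. Chromosome 5 had the highest share of higher genes, 50 of 739 (6.77%), and chromosome 1 had 235 genes in raised neighbourhoods. The aldo-keto reductases AKR1E2 (-1.69 log2, SE 0.17), AKR1C2 (-1.47, SE 0.19), AKR1C1 (-1.35, SE 0.26) and AKR1C3 (-0.51, SE 0.11; adjusted p = 0.0639 with the variance of these 6 arrays alone) fell, all in lowered neighbourhoods of chromosome 10 (-0.59 to -0.53). The neighbour medians were similar after 4 hours in 2D: for AKR1E2 -0.59 in 3D and -0.55 in 2D, and for CUL2 -0.48 and -0.42. Whether the lines differ in their chromosomes was not measured on these arrays, and the part of the neighbourhoods in the single values was not tested. The AKR1C genes are near-identical, so their separate values are uncertain. Of 17 other targets of NRF2, the antioxidant regulator, 0 passed, where 5.70% of all genes did. Outside shifted neighbourhoods 380 genes were higher and 339 lower. Of the genes called in the division lists, 5 of 42 and 1 of 25 lay in shifted neighbourhoods, and 3 of 13 in the hypoxia list.

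**Figure D5:**
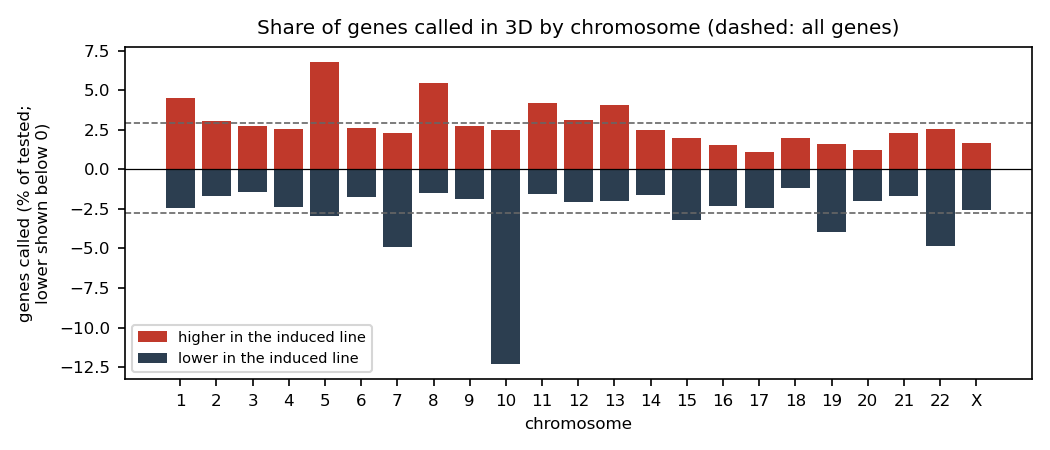
Percent of tested genes on each chromosome that were higher (bars above 0) or lower (bars below 0) in the induced line in 3D, with dashed lines at the shares over all genes (2.93% and 2.77%). Chromosome 10 stands out with 12.3% of its genes lower, and chromosome 5 with 6.77% higher.

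Beside 2D culture, where the same lines had the drug for 4 hours, 298 of the 995 genes were also called in the same direction, 694 were not called and 3 (SNORA67, SRRD and ASB4) were called in the opposite direction. In 2D 546 genes passed (3.13%). The difference between the effects passed for 42 genes (0.241%), a count that ran from 11 without induced array 1 or control array 2 to 70 without induced array 2. It was 19 without induced array 3, 24 without control array 1 and 25 without control array 3. KIT rose by 1.06 log2 in 2D, 2.02 less than in 3D (adjusted p of the difference = 1.96e-04). FAM13A (1.39) and CEACAM7 (1.33) were also higher by more in 3D, and neither passed in 2D. PLA2G2A fell by 1.56 in 2D, so its fall was larger in 3D by 1.71 (adjusted p = 3.31e-06). OLFM4 rose by 3.81 in 2D, more than in 3D. PDE3A rose by 2.62 and NELL2 fell by 3.40 in 2D, close to their 3D values, with differences of 0.08 (adjusted p = 0.96) and 0.32 (adjusted p = 0.79) that did not pass. ABCB1 rose by 1.20 in 2D and LGR5 by 1.02. In the mitosis list 3 genes passed the test of the difference (AURKA, ANLN and E2F8) and in the S phase list 1 (GINS1). MKI67 (-0.05), DNMT1 (-0.08) and VEGFA (-0.13) did not pass in 2D, and their differences from 3D did not pass either (adjusted p = 0.2, 0.11 and 0.18). Culture form and time of induction differ together between these experiments and cannot be told apart.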

How the data were processed

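Total RNA was hybridised to Affymetrix arrays, per the labels. The log2 values were deposited by the authors, and per the submitters' processing notes they were made with Partek 6.6 and RMA. This method subtracts background, gives all arrays the same distribution and summarises probes, so a shift common to all genes would be removed, and differences of dim genes are understated. A genome build was not given in the sources used here.

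Of 20276 probe sets, 18062 carried 1 gene symbol, 1288 several and 926 none. For each of 17448 genes (468 had more than 1 probe set) the brightest set was tested, and 17424 matched RefSeq GRCh38.p14. A coefficient per group was fitted to all 24 arrays with limma 3.58.1 in R 4.3.3 (15 residual and 9.81 prior degrees of freedom, 2-sided tests, adjusted p under 0.05). The lowest correlation of an array within its group was 0.987 to 0.990 for the 6 arrays compared. It was 0.989 to 0.991 in 2D and 0.991 to 0.993 for the other 3D arrays. The pooled variance may thus be too small for the 6 arrays. With their variance alone, and fewer degrees of freedom, 468 genes passed. The number of arrays limits the precision (median SE 0.12 log2), and array medians ran from 4.05 to 4.09 over the 6 arrays compared. The method was tested on simulated data.

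The genes, the 31 lists (984 genes measured) and the tests were chosen with earlier results of these data known. Named genes are DPPA3, the 15 largest rises and falls among called genes above the median level, up to 4 called members per direction of each list, and a set of regulators named whatever their values, of which 1 is not reported here. Genes named to spell out a short count were added after their values were seen, and most were not followed through the alternatives. Lists were described by counts and medians, with no test. Replicate numbers did not pair the arrays (r = 0.15, -0.209 and -0.112 for same-numbered deviations). The alternatives were the variance from fewer arrays, a replicate block, mean probe sets, a filter on dim genes, median centring, a trended prior, array weights, each array left out, and genes in shifted neighbourhoods left out.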

Additional observations from a re-analysis of the deposited data

Results flagged for a closer look

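The effects in 3D and 2D differed, by the test of the difference across all genes, for 8 of the genes named. The 3D effect minus the 2D effect was 2.02 log2 for KIT, 1.39 for FAM13A, 1.33 for CEACAM7, 0.94 for SLCO1C1, -0.98 for GAL, -1.06 for EME1, -1.46 for OLFM4 and -1.71 for PLA2G2A. OLFM4 rose in both cultures and by more in 2D. EME1 fell in 3D, and its 2D value was 0.47 and did not pass. FOXM1 and UTP20 were lower on every induced array in 3D and higher on every induced array in 2D, with 2D log2 fold changes of 0.15 and 0.17. For these 2 genes the difference itself did not pass (adjusted p = 0.158 and 0.154).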

How the results depend on the processing

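All 120 genes named and called in 3D, including 4 named for their promoters, kept their direction in the 14 or 15 alternatives run for each gene (14 where a filter left it out), and 72 kept their call in all that were run. With the variance of the 6 arrays only, 253 genes were higher and 215 lower, 13 S phase and 11 mitosis genes fell, and 7 genes passed the difference of effects (12 arrays). That variance ended 39 calls of named genes, the most of any alternative. Among them were KIF11, SPAG5, TACC3, FOXM1 and EPHA1, for which only the single arrays are given above. With the variance of the 12 induction arrays, an alternative chosen after seeing the data, 26 mitosis genes fell. Leaving out single arrays gave 330 to 508 higher genes, 278 to 481 lower genes, 11 to 70 for the difference of effects, 16 to 25 in the S phase list and 19 to 36 in the mitosis list. Leaving out induced array 2 and control array 3 together was also chosen after seeing the data. The replicate block gave 465 higher and 438 lower genes and ended 7 calls of named genes, although the numbers did not pair the arrays. BCL2, not called, passed in 1 alternative. Signals near background limit what can be said of dim genes.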
